A study of Mus musculus with 46 samples.

Results

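The insulin-like growth factor (IGF) genes described here were 9 named rows of a gene-level expression table: the ligand gene Igf1, the receptor genes Igf1r and Igf2r, and the binding protein genes Igfbp2, Igfbp3, Igfbp4, Igfbp5, Igfbp6 and Igfbp7. Each name matched 1 row, so 9 of 53465 rows were members. RNA had been sequenced from 4 kidney cell populations sorted by flow cytometry from wild-type (WT) male C57BL/6 mice of 8 to 12 weeks. The populations were proximal tubule cells binding Lotus lectin (PT, LTL+), F4/80+ macrophages, CD31+ endothelial cells and PDGFRβ+ stromal cells. Mice had sham surgery, unilateral ureteric obstruction (UUO), or obstruction followed by reimplantation of the ureter (rUUO), the last being culled 14 days after reversal. The design text names obstruction of 2 and of 7 days, and the sample labels did not say which a UUO library came from. Each of the 12 groups held 3 or 4 libraries, 44 in all, and every value is in FPKM, a fragment count scaled to the length of the transcript and the size of the library.

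The IGF axis is a short-range growth and survival signal. IGF1 binds the receptor tyrosine kinase IGF1R, whose signal runs through IRS proteins, PI3-kinase and AKT, while IGF2R, the cation-independent mannose 6-phosphate receptor, carries lysosomal enzymes and clears IGF2. The classical IGF binding proteins hold IGFs away from their receptor, carry them or release them after proteolysis, whereas IGFBP7 binds IGFs weakly and is secreted into the matrix and vessel wall. In the kidney, IGF1 acts on the glomerulus and tubule, and tubule injury and repair are known settings of its action.

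All 9 are annotated as protein-coding genes (mm10 coordinates, as in the GENCODE annotation M21). Igf1 lies on chromosome 10 (87858265 to 87937042, plus strand), Igf1r on chromosome 7 (67952827 to 68233668, plus) and Igf2r on chromosome 17 (12682406 to 12769664, minus). Igfbp3 (7206086 to 7213923, minus) and Igfbp4 (99041244 to 99054392, plus) lie on chromosome 11, Igfbp6 on chromosome 15 (102144362 to 102149511, plus) and Igfbp7 on chromosome 5 (77349240 to 77408041, minus). Igfbp2 and Igfbp5 are neighbours on chromosome 1 and are placed with their values.

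The sorts carried their own defining markers. All 5 markers fixed for PT (among them Lrp2 and Slc34a1), all 5 for endothelium (Pecam1, Cdh5) and all 5 for stroma (Pdgfrb, Col1a1) were higher in every library of their own sort than in any other, as were 4 of 5 macrophage markers, with Mertk the exception. Mitochondrial transcripts took 58.7% to 75.6% of the FPKM in PT and 20.2% to 45.8% in the other sorts, and the libraries held between 9502 and 14464 genes at 1 FPKM or more. FPKM gives no read totals. Low values of single-exon genes placed the depth of each library between 0.627 and 1.58 times the median library.

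The sham level of every member differed among the populations. Across the 4 sham groups the 9 members all differed by limma's F test (adjusted p from 2.67e-13 for Igfbp5 to 0.0053 for Igf1r), where 84.7% of all genes tested differed, so the count itself was close to that of the table as a whole. The same mice may have given several of these sorts, which the labels do not tie together.

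Igf1, the ligand, was highest in macrophages and stroma. Its sham level was 57.8 ± 10.1 FPKM (SD, n = 4) in macrophages and 62.9 ± 34.1 (SD, n = 4) in stroma, a pair that overlapped and was not separated by limma (adjusted p = 0.999). Endothelium followed at 30.2 ± 8.12 (SD, n = 4), below macrophages (adjusted p = 0.0141), and PT was lowest at 1.17 ± 0.257 (SD, n = 3). Igf1r, its signalling receptor, was spread more evenly, from 20.8 ± 4.34 in stroma and 16.9 ± 0.286 in PT (adjusted p = 0.474 between them) to 10.6 ± 3.56 in endothelium and 9.5 ± 3.98 in macrophages. Igf2r ran in another order: PT was highest at 15.2 ± 3.34, stroma (8.32 ± 0.439) and endothelium (6.78 ± 2.13) were not separated (adjusted p = 0.423), and macrophages were at 0.945 ± 0.326.

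Of the 6 binding protein genes, Igfbp2, Igfbp4, Igfbp6 and Igfbp7 were highest in stroma and Igfbp3 in endothelium, while Igfbp5 was high in both. Igfbp7 was the most abundant member in sham stroma at 2462 ± 347 FPKM (SD, n = 4), 5.51 times its PT level and 10.2 times its endothelial level by group means. Igfbp5, a binding protein with heparin- and matrix-binding regions, stood at 1297 ± 216 in stroma and 1019 ± 271 in endothelium, which overlapped (adjusted p = 0.308), against 31.1 ± 3.76 in PT and 12.9 ± 4.22 in macrophages. Igfbp3, the main IGF carrier of plasma, was highest in endothelium at 165 ± 23.7 and 4.09 times lower in stroma. Igfbp4, which is cut by the protease PAPP-A, was highest in stroma at 159 ± 27.1, followed by PT at 79.1 ± 15.7. Igfbp6, the binding protein that prefers IGF2, and Igfbp2, whose protein can also bind integrins, were near 0 outside the stroma: Igfbp6 was at 56.0 ± 43.5 in stroma and at most 1.56 on average elsewhere, and Igfbp2 at 7.44 ± 4.48 in stroma and at most 0.423 elsewhere. In sham macrophages Igfbp2 was listed at 0 in 3 of 4 libraries.

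**Figure D1:**
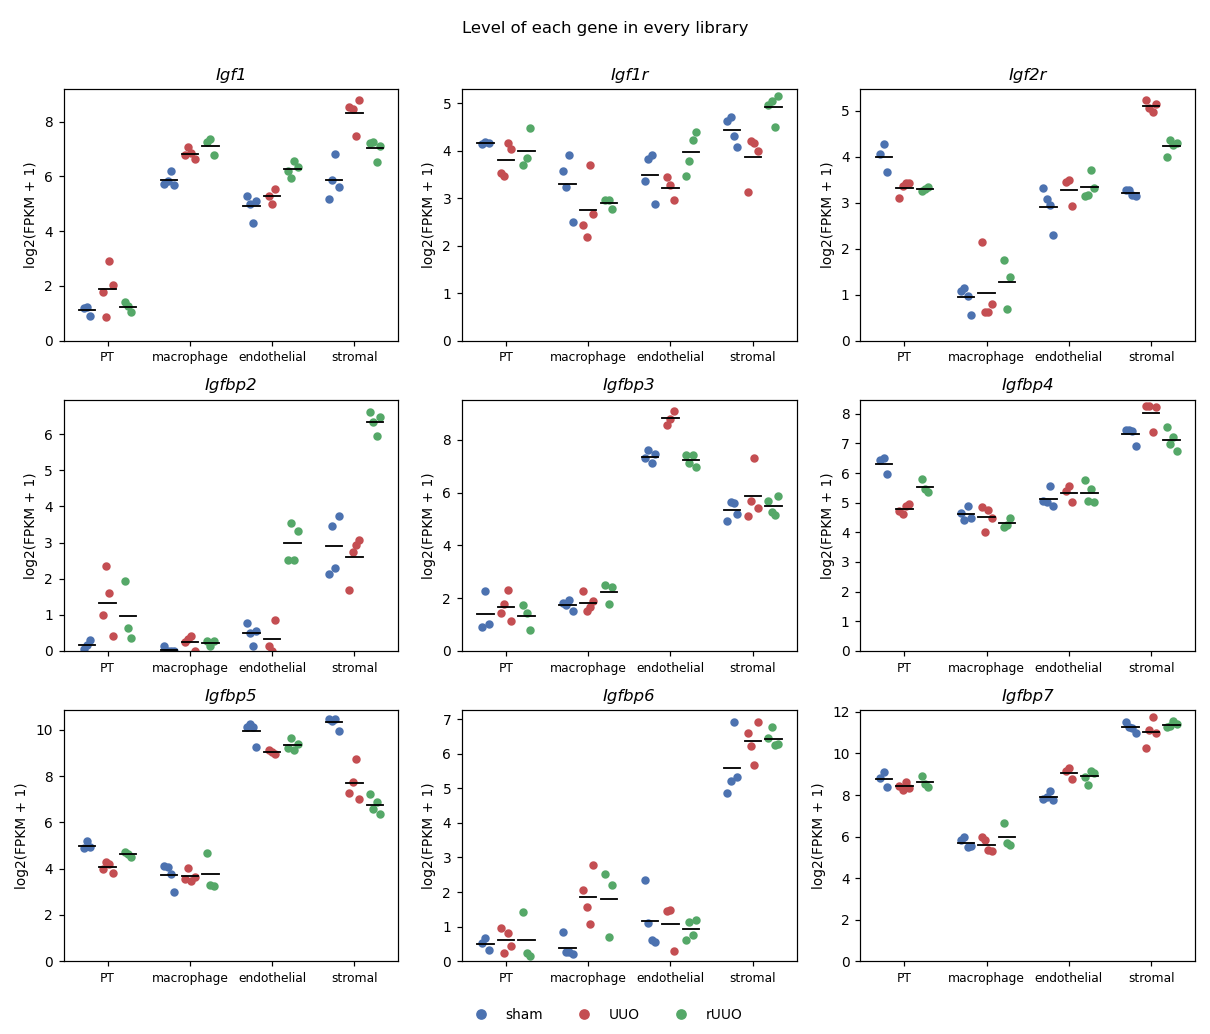
Level of each of the 9 genes in all 44 libraries, as log2(FPKM + 1), by sorted population and surgery (each point is a library, each bar the group mean). Stromal Igf1 and Igf2r were highest in UUO, Igfbp2 in stroma and endothelium was highest in rUUO, and stromal Igfbp5 was highest in sham.

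The comparisons that follow ask how obstruction (UUO against sham) and its reversal (rUUO against UUO, and rUUO against sham) altered each gene within a sort. Changes are log2 differences on the log2(FPKM + 1) scale with their standard error (SE), and a change was called at an adjusted p under 0.05 by limma with Benjamini-Hochberg adjustment over all genes tested in that sort. The scale understates changes of genes near 1 FPKM. Since the cells were measured as bulk sorts, fewer cells of a type and less RNA per cell cannot be told apart.

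Igf1 changed most in obstructed stroma. In the stromal sort, Igf1 was at 34.7, 57.0, 112 and 47.7 FPKM in the 4 sham libraries and at 373, 353, 175 and 441 in the 4 UUO libraries. All UUO libraries lay above all sham libraries, the lowest UUO library being replicate 3 and the highest sham library also a replicate 3. Igf1 thus rose 5.34-fold by group means (log2 change 2.46 ± 0.329, SE, adjusted p = 4.61e-05). After reversal the 4 libraries stood at 148, 153, 91.9 and 137, all below UUO and overlapping sham. Igf1 fell by 1.28 on the log2 scale against UUO (adjusted p = 0.0408), and remained called against sham (1.17 ± 0.329, adjusted p = 0.0216). The fall on reversal was near the threshold: it stayed called in the refits that left out sham replicate 1, sham replicate 3 or UUO replicate 3, and was lost in 9 of 12, while the difference from sham was lost without sham replicate 1 or 4 or without rUUO replicate 1, 2 or 6. Over those refits the fall ranged from -1.57 to -1.12 and the difference from sham from 0.94 to 1.49, and 3 and 4 of 7 alternative settings lost them.

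Matrix transcripts rose beside stromal Igf1 in UUO. Dcn, encoding the matrix proteoglycan decorin, was at 1414 FPKM in UUO replicate 3 and at 1801 to 3838 in the other UUO libraries, and at 1011 in sham replicate 3 and 314 to 467 in the other sham libraries. The 5 stromal markers summed to between 832 and 2144 FPKM in sham, 5709 and 9598 in UUO, and 4643 and 5824 in rUUO. Of these markers, 4 rose and Pdgfrb fell in UUO. The mitochondrial share of stromal FPKM was 34.0% to 45.8% in sham, and it lay between 21.5% and 26.4% in UUO and between 20.2% and 25.9% in rUUO, so it separated sham from both other groups and overlapped between these. The part of these markers and of this share in the stromal results for Igf1, Igf2r, Igfbp2 and Igfbp5 was not tested.

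Macrophage Igf1 rose with obstruction too, and no further difference was called after reversal. The sham libraries held 51.9, 56.0, 72.6 and 50.5 FPKM and the UUO libraries 108, 133, 115 and 98.3, with no overlap. The rUUO libraries held 150, 162 and 108, again all above sham. The increase was 1.97-fold by group means in UUO (0.97 ± 0.184, SE, adjusted p = 0.0089) and 2.43-fold in rUUO (1.26 ± 0.198, adjusted p = 0.0025), and rUUO against UUO gave 0.29 ± 0.198 (adjusted p = 0.815). It was the only member called in this sort, where 4.99% of genes were called in UUO against sham and 3.44% in rUUO against sham. In rUUO against UUO limma called 0 genes of 13332, or 0%, with 945 at an unadjusted p under 0.05. A list of 4 further leukocyte markers (Cd3e, Cd79a, S100a8, Ccr2) moved beside it, and all 4 were called higher in UUO. They summed to between 52.1 and 92.2 FPKM in sham, 218 and 302 in UUO, and 124 and 168 in rUUO. Most of that sum was Ccr2, with a mean of 74.7 in sham, 226 in UUO and 129 in rUUO. The 5 PT markers summed to between 80.1 and 100 in sham and to at most 24.7 in UUO and 14.9 in rUUO. The 5 macrophage markers themselves summed to between 2645 and 3590 in sham, 1039 and 2848 in UUO, and 2461 and 2961 in rUUO. Of these 5, 1 was called higher and 0 lower in each comparison with sham. Mertk had means of 5.36 in sham, 15.2 in UUO and 20.1 in rUUO, and Csf1r had means of 607, 449 and 410. The part of these transcripts in the Igf1 result was not tested.

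Endothelial Igf1 was called in rUUO against sham and in neither other comparison. The sham libraries were at 37.9, 30.6, 18.9 and 33.4 FPKM, the UUO libraries at 37.5, 31.1 and 45.5, and the rUUO libraries at 72.7, 60.1, 93.2 and 80.7. The rUUO values lay above all the others, and UUO overlapped sham. The rise was 2.54-fold against sham (1.34 ± 0.231, adjusted p = 0.0057), and against UUO the difference was 0.99 ± 0.249 (adjusted p = 0.167). The call against sham was lost when replicate number was added as a block (1.11). Macrophage markers in this sort summed to 28.5 to 45.8 FPKM in sham and 35.6 to 58.0 in rUUO, against at least 1039 in every macrophage library. Most of this endothelial sum was Mertk (a mean of 27.2 in sham and 30.8 in rUUO), and Cd68, at 2.14 to 3.36 in sham and 4.10 to 10.2 in rUUO, did not overlap (1.03, adjusted p = 0.147). Limma called 0 of the 4 markers tested, and their part in the result was not tested. PT Igf1 ranged from 0.82 to 6.48 FPKM and was not called, with a UUO change of 0.79 that reached 1.13 and was called without UUO replicate 2. The title of that library named both sham and UUO, and its treatment label placed it in UUO.

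Whether obstruction altered Igf1 to the same extent in each population was tested directly. The UUO change of Igf1 differed among the 4 sorts by an interaction F test (adjusted p = 0.00131), as did the change on reversal (adjusted p = 0.00516). On reversal the estimate was negative in stroma and in PT (-0.65, not called) and positive in macrophages and endothelium. Of all genes tested 33.5% differed among the sorts by this F test for UUO against sham and 5.57% for rUUO against UUO. Igf1, Igf2r, Igfbp4, Igfbp5 and Igfbp7 were among the former, and Igf1, Igfbp2 and Igfbp4 among the latter.

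Of the receptors, Igf2r showed the more distinct response. Stromal Igf2r stood at 8.66, 8.74, 8 and 7.89 FPKM in sham and at 36.6, 32.3, 30.6 and 34.2 in UUO. After reversal it was at 14.9, 19.5, 18.0 and 18.8. The 3 groups did not overlap, and the spread within each was small. Igf2r rose 4.01-fold in UUO (1.88 ± 0.184, SE, adjusted p = 2.31e-06), fell by 0.88 from UUO to rUUO (adjusted p = 0.0166) and stayed above sham (1.01 ± 0.184, adjusted p = 0.00118). The fall was lost without rUUO replicate 1 (-0.80) and when replicate number was added as a block (-0.93). PT Igf2r moved the other way: 15.5, 18.3 and 11.7 in sham against 7.57, 9.26, 9.71 and 9.81 in UUO, without overlap, a fall of 0.67 ± 0.229 (adjusted p = 0.0376). That call was the weakest among the PT members: it was lost without sham replicate 1 or 2 and without each of the 4 UUO libraries, with changes of -0.83 to -0.53, and 3 of its 7 alternative settings lost it as well. The interaction test for Igf2r gave an adjusted p of 9.14e-06.

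The Igf2r locus holds Airn, an imprinted antisense RNA, on the other strand. Airn was itself measured at 0.97 to 6.53 FPKM in stromal UUO and at 9.01 to 19.7 in stromal rUUO, so the rUUO libraries with lower Igf2r had higher Airn than the UUO libraries. In PT both were lower in UUO, Airn being at 9.17 to 15.8 FPKM in sham and 4.21 to 7.01 in UUO. The amplification kit was Ovation RNA-Seq System V2 and no strand setting was given in the sources used here, so reads of overlapping genes on opposite strands could not be kept apart. The same holds for Igf1 and Igf1os (at most 1.73 FPKM) and for Igfbp7 and Polr2b (at most 21.6).

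Igf1r, the signalling receptor, was called in 1 of its 12 comparisons. Its stromal values were 23.5, 25.3, 18.6 and 15.9 FPKM in sham, 7.79, 17.4, 16.9 and 14.8 in UUO and 29.9, 31.9, 21.5 and 34.3 in rUUO. Every rUUO library was above every UUO library, a 2.07-fold rise (1.03 ± 0.262, SE, adjusted p = 0.039), while UUO overlapped sham (-0.55 ± 0.262, adjusted p = 0.135). The rise was lost when sham replicate 1 or 2, UUO replicate 1 or 4, or rUUO replicate 1, 2 or 6 was left out (0.79 to 1.17 over all 12 such refits), and under 5 of 7 alternative settings. Igf1r was not called in PT, macrophages or endothelium, where it ranged from 3.55 to 21.2 FPKM.

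Igfbp2 rose in the reversal group, in stroma and in endothelium. Stromal Igfbp2 was at 3.37, 10.1, 3.94 and 12.4 FPKM in sham and at 2.20, 5.70, 6.68 and 7.38 in UUO, which overlapped. In rUUO it was at 97.9, 80.5, 60.6 and 87.3. All rUUO libraries lay far above both other groups: the rise was 14.9-fold against UUO (3.74 ± 0.38, SE, adjusted p = 0.000146) and 11-fold against sham (3.44 ± 0.38, adjusted p = 1.41e-05). Both calls held with any 1 library left out and under all 7 alternative settings. The change on reversal differed among the populations (adjusted p = 1.9e-06). In stroma 4.17% of genes were called in rUUO against UUO and 17.2% in rUUO against sham, beside 5 and 4 of the 9 members.

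Endothelial Igfbp2 moved in the same comparison from a much lower start. It was at 0.72, 0.41, 0.09 and 0.47 FPKM in sham, at 0.09, 0.00 and 0.81 in UUO and at 4.72, 10.7, 4.77 and 9.07 in rUUO. Again the rUUO libraries stood apart from all the others. On the log2 scale Igfbp2 rose by 2.65 ± 0.417 (SE) against UUO (adjusted p = 0.0268) and by 2.49 ± 0.386 against sham (adjusted p = 0.00252). Limma called 8 genes, 0.0597% of those tested, between endothelial rUUO and UUO, and Igfbp2 and Igfbp3 were 2 of them. Gm15501, AA467197, Dkk3, Mdk-ps1 and Clic3, named here after their values were seen, were also among them. The Igfbp2 call in this comparison was lost without UUO replicate 1 or 2 or rUUO replicate 2, 4 or 6, with changes of 2.46 to 2.92, and under 4 of 7 alternative settings. Its call in rUUO against sham was lost when replicate number was added as a block (2.25).

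Transcripts of other cells were measured in the endothelial sort as well. The 5 mural and myofibroblast markers summed to at most 96.0 FPKM in sham and 85.3 in UUO and to between 136 and 163 in rUUO, none of them being called, whereas the sums of the 5 stromal markers overlapped throughout (28.4 to 57.8). Their part in the endothelial Igfbp2 result was not tested. Igfbp2 in PT ranged from 0.04 to 4.09 FPKM over the 10 libraries and was not called (UUO against sham 1.17 ± 0.475, adjusted p = 0.0724), although UUO and sham did not overlap and the change was called without UUO replicate 4 (1.48).

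In stromal rUUO against sham Igfbp5 fell while its chromosomal neighbour Igfbp2 rose, and in stromal UUO against sham Igfbp5 fell and Igfbp2 was not called (-0.30, adjusted p = 0.6). Igfbp2 (chromosome 1, 72824503 to 72852474, plus strand) and Igfbp5 (chromosome 1, 72857932 to 72874884, minus strand, mm10) lie tail to tail with 5457 bases between them and 0 annotated genes in the gap. Stromal Igfbp5 stood at 1438, 1334, 1436 and 982 FPKM in sham, at 153, 214, 429 and 127 in UUO, and at 148, 94.7, 118 and 82.3 in rUUO. Every obstructed or reversed library was below every sham library, and UUO and rUUO overlapped. Igfbp5 fell 5.63-fold in UUO (-2.64 ± 0.302, SE, adjusted p = 1.03e-05) and 11.7-fold in rUUO against sham (-3.56 ± 0.302, adjusted p = 1.31e-06), and the difference between rUUO and UUO was not called (-0.92 ± 0.302, adjusted p = 0.105). The highest UUO library was replicate 3, without which the fall in UUO was 2.99 on the log2 scale, and both calls against sham held under all 7 alternative settings. In UUO against sham 26.4% of stromal genes were called, beside 4 of 9 members.

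**Figure D2:**
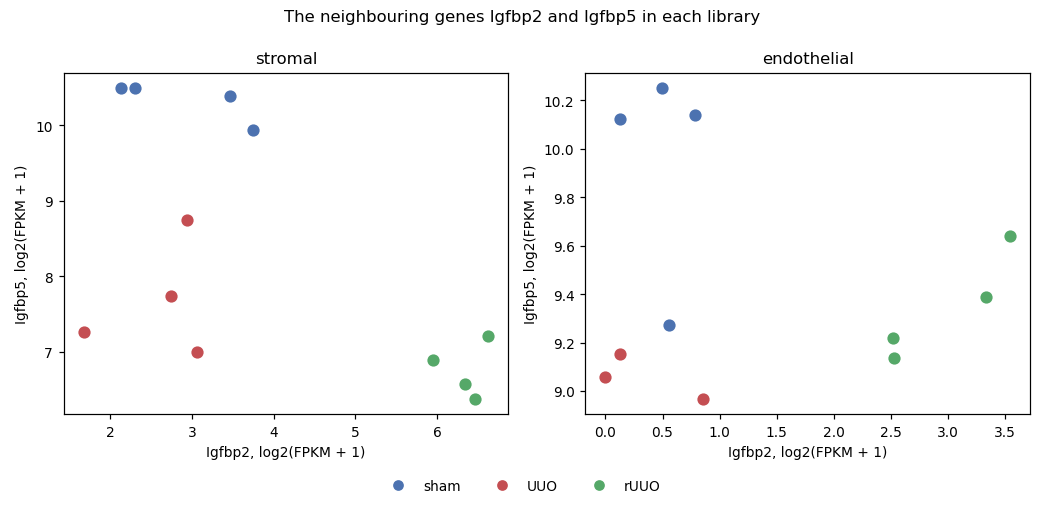
Igfbp5 against Igfbp2 in each stromal (left) and endothelial (right) library, both as log2(FPKM + 1) on axes that do not start at 0 and differ between the panels. In stroma the UUO libraries lie below sham on the Igfbp5 axis at overlapping Igfbp2 levels, and the 4 rUUO libraries lie at low Igfbp5 and high Igfbp2. In endothelium the rUUO libraries are set apart on the Igfbp2 axis.

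The upstream sequences of these neighbours are shown because their transcripts had opposite called changes in stromal rUUO against sham. Each line gives the 120 bases before a RefSeq transcription start (GRCm38.p6), 5′ to 3′ on the gene's own strand, with capitals marking the letters GGGCGG (a GC box, the core of Sp1-type sites, searched on both strands). Such a box occurred within 250 bases upstream in 32.7% of 32851 RefSeq promoters.
Igfbp2, chr1:72824360-72824479, plus strand: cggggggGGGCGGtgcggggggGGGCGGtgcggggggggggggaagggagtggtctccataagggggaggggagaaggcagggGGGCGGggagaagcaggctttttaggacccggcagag
Igfbp5, chr1:72874866-72874985, minus strand: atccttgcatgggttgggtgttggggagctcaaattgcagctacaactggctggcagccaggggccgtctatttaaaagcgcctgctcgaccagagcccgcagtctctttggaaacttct
The Igfbp2 window held 3 of these boxes and 67.2% G and C over its 250 upstream bases, and the Igfbp5 window held 0 boxes at 58.8% G and C. A second RefSeq start of Igfbp2 had 0. Matches describe the letters and not the binding of any factor.

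Stromal Igfbp5 did not fall alone. Gja5, encoding a gap junction protein of vascular and juxtaglomerular cells, was at 266 to 368 FPKM in stromal sham and at 0.57 to 7.44 in UUO and rUUO. Ehd3 was at 70.3 to 107 in sham and 3.98 to 17.5 in UUO and rUUO, and Plvap at 31.8 to 41.3 and 1.16 to 7.11. Ren1, encoding renin, lay between 19.4 and 218 in sham, between 4.94 and 23.5 in UUO and between 0.96 and 4.69 in rUUO. It was 1 of the 5 mural and myofibroblast markers, of which 2 rose and 2 fell in stromal UUO against sham. In rUUO against sham 1 rose and 3 fell. Mean levels in sham, UUO and rUUO were 139, 413 and 255 for Acta2 and 15.5, 508 and 122 for Postn. Those of Cspg4 were 57.2, 14.7 and 24.4, and those of Rgs5 were 268, 220 and 90.9. Of the 5 markers fixed for endothelial beds, 4 passed the filter and all 4 fell in both comparisons with sham. All 5 together summed to at least 381 in sham and to at most 24.3 in UUO and 34.2 in rUUO. Most of that sham sum was Gja5, with a mean of 336. The 5 general endothelial markers summed to between 63.1 and 79.7 in sham, between 30.6 and 55 in UUO and between 48.5 and 97.9 in rUUO, against at least 2013 in every endothelial library, and 3 of them (Pecam1, Tek, Emcn) fell in UUO. Transcripts of other tubule segments fell too: Umod had a mean of 224 in sham, 34.9 in UUO and 59.4 in rUUO, and Slc12a1, Slc12a3 and Aqp2 were called lower in both comparisons with sham as well. The part of these transcripts in the Igfbp5 result was not tested.

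**Figure D3:**
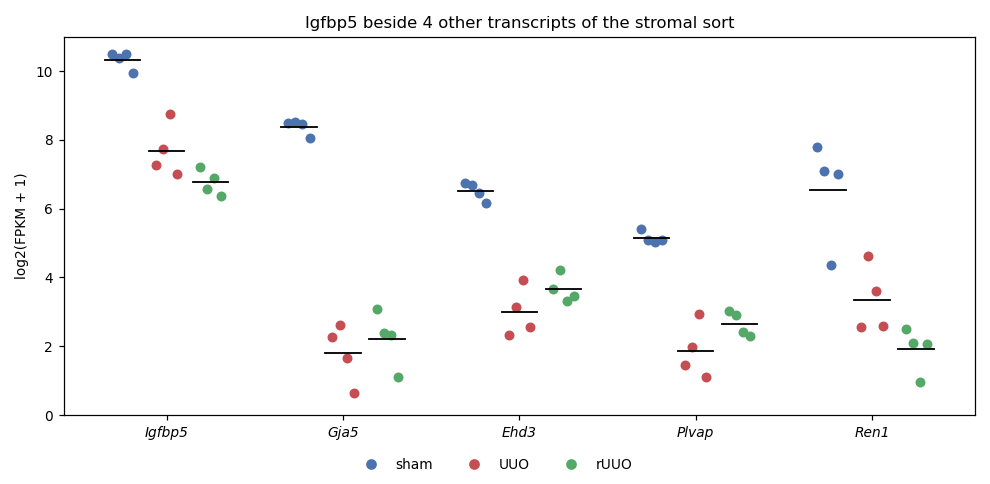
Igfbp5 beside Gja5, Ehd3, Plvap and Ren1 in the 12 stromal libraries, as log2(FPKM + 1) (points are libraries, bars group means). For Igfbp5, Gja5, Ehd3 and Plvap all 8 UUO and rUUO libraries lie below the 4 sham libraries, and for Ren1 sham and UUO overlap.

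Igfbp5 was lower in obstructed endothelium and PT as well, by less. The endothelial libraries stood at 1127, 1217, 1115 and 618 FPKM in sham, 568, 531 and 500 in UUO and 596, 797, 561 and 670 in rUUO. UUO did not overlap sham, although sham replicate 4 lay much closer to UUO than to the other sham libraries. The fall of 0.89 ± 0.214 (SE, adjusted p = 0.0454) held in only 1 of 11 refits that left out a library, the one without sham replicate 4, with changes of -1.11 to -0.79, and 5 of 7 alternative settings lost it. Against sham, rUUO gave -0.60 ± 0.198 (adjusted p = 0.166), which was called without sham replicate 4 (-0.83). Ehd3, which marks glomerular endothelium, was at 242 FPKM in that sham library and at 484 to 559 in the other 3. In PT, Igfbp5 was at 28.5, 35.4 and 29.3 in sham, 14.8, 18.8, 17.5 and 13 in UUO and 25.0, 23.9 and 21.9 in rUUO. PT groups did not overlap, Igfbp5 fell by 0.92 ± 0.206 in UUO (adjusted p = 0.00403), and neither comparison with rUUO was called. Macrophage Igfbp5 ranged from 6.96 to 25.0 FPKM, its highest value being rUUO replicate 1. The UUO change of Igfbp5 differed among the populations (adjusted p = 3.01e-05).

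Endothelial Igfbp3 rose in UUO and fell after reversal. It was at 157, 193, 137 and 173 FPKM in sham and at 373, 446 and 552 in UUO. After reversal it was at 172, 140, 172 and 123, within or below the sham range. Igfbp3 rose 2.77-fold in UUO (1.46 ± 0.191, SE, adjusted p = 0.000592) and fell 3.02-fold from UUO to rUUO (-1.58 ± 0.191, adjusted p = 0.00274), while rUUO against sham gave -0.13 ± 0.177 (adjusted p = 0.786). Both calls held with any 1 library left out. The fall was not called when low genes were left in the test or when replicate number was added as a block. In endothelium 1.98% of genes were called in UUO against sham, beside 3 of 9 members, and 1.77% in rUUO against sham, beside 3 of 9.

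Plvap, a protein of fenestrated and peritubular endothelium, rose with Igfbp3 in obstructed endothelium, from 57.0 to 129 FPKM in sham to 172 to 266 in UUO. It was the 1 called among the 5 markers of endothelial beds, whose median change was -0.28. Ehd3 went from a mean of 455 to 214 (-1.07, adjusted p = 0.0773) and Aqp1 from 165 to 119 (-0.48, adjusted p = 0.374), and Gja5 (0.04) and Sox17 (-0.28) were not called. Their part in the Igfbp3 result was not tested. Igfbp3 was not called in the other sorts. In stroma it was at 33.7, 50 and 41.5 in UUO replicates 1, 2 and 4 and at 159 in replicate 3, and the UUO change was 0.54 with that library and 0.06 without it (neither called). The interaction test of the UUO change missed the threshold for Igfbp3 (adjusted p = 0.0875) and passed it without stromal UUO replicate 3 (F = 5.54).

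Endothelial Igfbp7 rose in UUO and stayed up after reversal. The sham libraries held 223, 237, 292 and 217 FPKM, the UUO libraries 577, 627 and 436, and the rUUO libraries 468, 361, 576 and 538. Both later groups lay wholly above sham and overlapped each other. The rise was 2.26-fold in UUO (1.17 ± 0.194, SE, adjusted p = 0.00397) and 2.01-fold in rUUO (0.99 ± 0.179, adjusted p = 0.00819). Both calls were kept when any 1 library was left out. The rUUO call was lost when low genes were left in the test or when replicate number was added as a block. Igfbp7 was not called in stroma, where it ranged from 1247 to 3505, both of those extremes being UUO libraries, nor in macrophages. In PT its decrease of 0.36 in UUO missed the threshold (adjusted p = 0.169) and was called lower after rescaling without mitochondrial genes (-0.66) or quantile normalization (-0.52). The UUO change of Igfbp7 differed among the sorts (adjusted p = 0.00162).

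Igfbp4 had the largest called change of the members in PT. PT Igfbp4 stood at 86.0, 90.2 and 61.2 FPKM in sham, at 25.0, 23.4, 28.6 and 30.2 in UUO, and at 54.4, 43.3 and 40.4 in rUUO. The 3 groups did not overlap. Igfbp4 fell 2.95-fold in UUO (-1.51 ± 0.206, SE, adjusted p = 8.73e-05), a call kept with any 1 library left out and under all 7 alternative settings. The rUUO group lay between, at 0.75 ± 0.206 above UUO (adjusted p = 0.0585) and 0.76 ± 0.22 below sham (adjusted p = 0.0506). Both of these passed the threshold without sham replicate 4 (0.75 and -0.93), and both did so when the FPKM were rescaled without mitochondrial genes (0.94 and -0.87) or quantile normalized (1.00 and -0.80).

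PT as a whole shifted in UUO. The median gene was 0.51 higher on the log2 scale, 32.8% of genes were called, and 85.0% of those were higher, while the 3 members called (Igf2r, Igfbp4 and Igfbp5) were all lower. Quantile normalization brought the median to -0.02 and the higher share to 51.8%, and rescaling without mitochondrial genes brought them to 0.27 and 68.9%. Relative to the median gene the members' falls were larger than the values given. Under quantile normalization Igf1r and Igfbp7 were called lower as well. Mitochondrial transcripts took a median of 70.8% of PT FPKM in sham, 65.5% in UUO and 70.0% in rUUO. All 5 PT markers fell in UUO and Umod, a transcript of the thick ascending limb, rose from 15.2 to 19.6 FPKM in sham to 134 to 169. Their part in the PT results was not tested. Of the PT genes, 3.83% were called in rUUO against UUO and 7.46% in rUUO against sham, with 0 of the 8 members tested in either.

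Stromal Igfbp4 moved the other way from PT, less firmly. It was at 172, 175, 170 and 118 FPKM in sham, 306, 306, 164 and 299 in UUO and 187, 124, 149 and 105 in rUUO. UUO replicate 3 lay within the sham range, so the groups overlapped in every comparison. Igfbp4 rose by 0.73 ± 0.23 in UUO (SE, adjusted p = 0.0282) and fell by 0.91 ± 0.23 from UUO to rUUO (adjusted p = 0.0387). The rise was lost without sham replicate 4 or UUO replicate 1, 2 or 4 and under 3 of 7 alternative settings, and was 0.20 under quantile normalization. The fall held in the refits without sham replicate 3 or 4, UUO replicate 3 or rUUO replicate 1, and was lost in 8 of 12 (-1.13 to -0.78), as it was under 3 of 7 alternative settings. The change of Igfbp4 differed among the populations, with an adjusted p of 4.38e-06 for UUO against sham and 0.00663 for rUUO against UUO.

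The Igfbp4 promoter was the only one of those of the 9 members with the letters TATAA placed as a TATA box, which positions the start of transcription, between 40 and 15 bases before the RefSeq start on the gene's strand. That placement occurred in 3.79% of RefSeq promoters (1246 of 32851). The letters are in capitals in the 120 bases before the start. Variants of them were not searched, so the other promoters are not shown to lack a TATA element.
Igfbp4, chr11:99041124-99041243, plus strand: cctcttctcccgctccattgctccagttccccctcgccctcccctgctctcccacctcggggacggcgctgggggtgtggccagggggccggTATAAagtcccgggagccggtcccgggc

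Igfbp6 was called in none of the comparisons in which it was tested. It was at 28.3, 36.0, 121 and 38.8 FPKM in sham, 95.9, 73.9, 50.5 and 119 in UUO and 86.4, 108, 75.1 and 76.1 in rUUO. Sham replicate 3 lay above every other stromal library and the groups overlapped. The differences from sham were 0.77 ± 0.365 (SE, adjusted p = 0.134) and 0.85 ± 0.365 (adjusted p = 0.131), and without sham replicate 3 they were 1.22 and 1.30 and were called. Macrophage Igfbp6 lay between 0.15 and 0.78 in sham, between 1.13 and 5.85 in UUO and between 0.62 and 4.76 in rUUO, and was not called (UUO against sham 1.48 ± 0.467, adjusted p = 0.0899). Igfbp6 in PT and Igfbp2 in macrophages were too low to be tested.

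**Figure D4:**
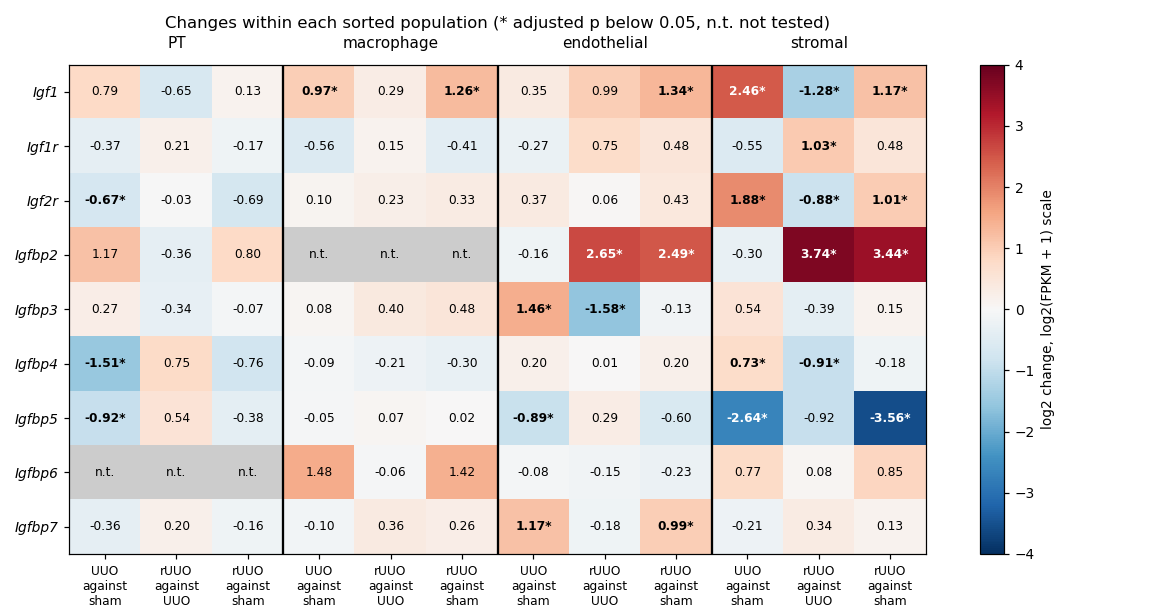
Log2 change of each of the 9 genes (rows) in the 12 comparisons within populations (columns, with the first-named group minus the second), on the log2(FPKM + 1) scale. Asterisks mark an adjusted p under 0.05 and n.t. a gene not tested. The largest rises are those of Igfbp2 in stromal rUUO and the largest falls those of stromal Igfbp5.

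The mix of binding protein transcripts differed between surgeries in endothelium, stroma and PT. Taken over Igfbp2 to Igfbp7 in each library, Igfbp5 made up 68.8% ± 6.28 (SD, n = 4) of the summed endothelial FPKM in sham, 33.8% ± 2.26 (SD, n = 3) in UUO and 48.9% ± 7.65 (SD, n = 4) in rUUO. Igfbp3 went from 11.7% ± 3.50 to 29.1% ± 6.46 and 11.3% ± 2.00, and Igfbp7 from 16.9% ± 3.26 to 34.5% ± 5.10 and 36.2% ± 6.71. The endothelial sum itself stayed similar, at 1463 ± 289, 1578 ± 68.1 and 1341 ± 34.6 FPKM. In stroma Igfbp5 went from 32.2% ± 1.65 in sham to 7.62% ± 2.13 in UUO and 3.52% ± 0.941 in rUUO (n = 4 each), while Igfbp7 took 61.3% ± 2.72, 76.0% ± 5.71 and 85.2% ± 2.74. The stromal sum was 4022 ± 563, 2914 ± 1035 and 3148 ± 210.0 FPKM, and the level of Igfbp7 itself was not called different, so its larger share went with the lower Igfbp5 in the sum. In PT the Igfbp4 share was 14.2% ± 0.843 in sham, 6.87% ± 0.843 in UUO and 9.80% ± 0.254 in rUUO, without overlap. These shares are descriptions with no test of their own.

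**Figure D5:**
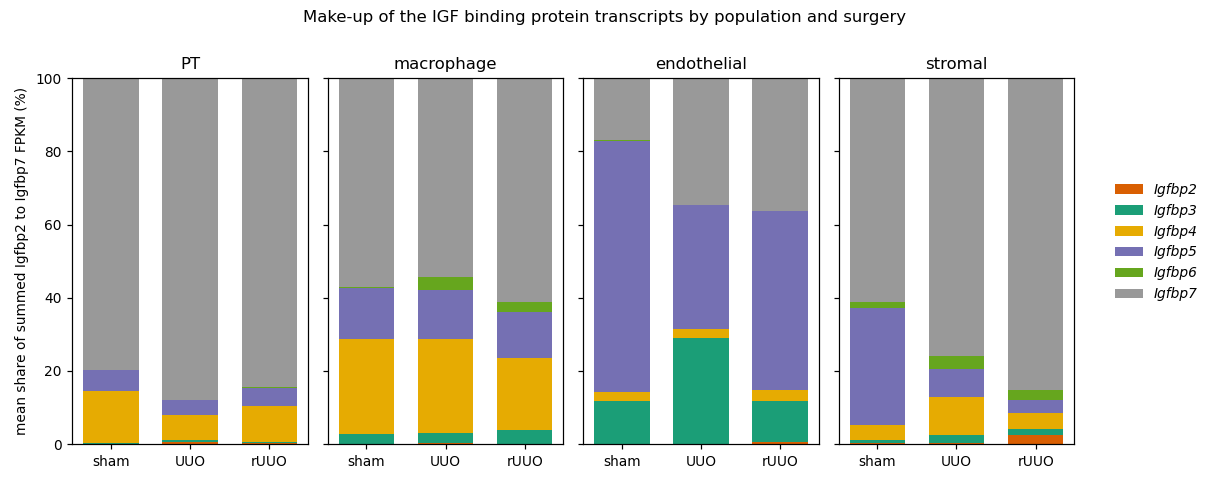
Mean share of each binding protein gene in the summed FPKM of Igfbp2 to Igfbp7 (stacked bars, percent), by population and surgery. Igfbp7 makes up most of the PT sum in every group, and the Igfbp5 share falls after obstruction in endothelium (68.8% to 33.8%) and stroma (32.2% to 7.62%).

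The rest of the IGF pathway was read from lists of genes outside the 9. Igf2, the other ligand, rose in obstructed stroma from 4.33, 4.17, 4.01 and 8.75 FPKM in sham to 33.6, 82.9, 30.0 and 18.0 in UUO (2.58 ± 0.56, SE, adjusted p = 0.00286), and stood at 5.13, 6.57, 6.27 and 0.11 in rUUO, a fall of 3.04 against UUO (adjusted p = 0.00865). Its highest sham level was in endothelium, at 54.1, 56.3, 55.1 and 41.7 FPKM, where UUO lay wholly lower at 20.1, 19.7 and 34.0 without passing the threshold (-1.08 ± 0.28, adjusted p = 0.0621). Insr, the insulin receptor gene, rose in endothelium, from 14.3 to 35.8 FPKM in sham to 37.7 to 73.3 in UUO (1.22 ± 0.281, adjusted p = 0.0367) and 86.0 to 103 in rUUO (1.94 ± 0.26, adjusted p = 0.000757). Igfbp1, which lies beside Igfbp3 on chromosome 11 with 3539 bases between them, was a PT transcript that fell from 3.25 to 5.08 FPKM in sham to 0.65 to 1.78 in UUO (-1.33 ± 0.298, adjusted p = 0.00416). Insrr, an insulin receptor relative, rose in PT from a mean of 0.173 to 14.5 FPKM (3.72 ± 0.309, adjusted p = 7.41e-07).

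Genes that act on binding proteins formed a second list, to be read against 26.4% of all genes called in stromal UUO and 32.8% in PT UUO. Of 9 genes for IGFBP proteases and their stanniocalcin inhibitors, 8 passed the filter in stroma, where 2 rose and 2 fell in UUO. Adam12, a metalloprotease that cleaves IGFBP3 and IGFBP5, rose from a mean of 9.65 to 95.1 FPKM (3.17 ± 0.203, SE, adjusted p = 5.46e-08) and fell by 1.54 on reversal (adjusted p = 0.00111). Stc2, encoding an inhibitor of PAPP-A, fell by 1.58 in UUO and rose by 2.35 from UUO to rUUO (adjusted p = 0.0026). In PT 4 passed, of which 3 rose in UUO and 0 fell: Adamts1, Stc2 and Ctsd, encoding the lysosomal protease cathepsin D, which is cargo of mannose 6-phosphate receptors. Stromal Ctsd was likewise higher in UUO, at 110 to 185 FPKM in sham and 199 to 310 in UUO. Stromal Adamts1 moved the other way from PT, from 85.1 to 136 FPKM in sham down to 31.8 to 71.5 in UUO. Ctsd also rose in macrophages (1.88 ± 0.191, adjusted p = 9.47e-05), alone among the 3 genes that passed there. In endothelium 6 passed and 0 were called. Pappa, encoding the protease of IGFBP4, was at 0.10 to 3.15 FPKM in stroma and below 1 FPKM elsewhere.

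Signalling genes downstream of the receptors were called about as often as all genes in stromal and PT UUO (26.4% and 32.8%). All 15 genes of this list passed the filter in stroma and PT. In stromal UUO 3 rose (Irs2, Akt2 and Grb10, the last an adaptor that inhibits the insulin and IGF1 receptors) and Pik3r1 fell, with a list median of 0.10 beside -0.07 over all genes. Grb10 went from a mean of 16.5 to 122 FPKM (2.82 ± 0.171, SE, adjusted p = 3.74e-08) and fell by 1.21 on reversal (adjusted p = 0.00178). In PT UUO 5 rose (Irs1, Grb10, Grb14, Pik3r1, Akt1) and 0 fell, with a list median of 0.58 beside 0.51 over all genes. In macrophages 13 passed and in endothelium 15, and limma called 0 of them in every comparison. Among 6 genes of growth hormone signalling, which drives Igf1 in liver, Ghr rose in stroma in UUO (0.94 ± 0.177, adjusted p = 0.000969) and rUUO (1.45 ± 0.177, adjusted p = 3.36e-05), with Socs2 also higher in rUUO. Those were 1 and 2 of the 6, where 26.4% and 17.2% of all genes were called. In PT UUO 2 of the 6 were called higher, beside 32.8% of all genes. Without overlap there, Jak2 went from 1.45 to 2.16 FPKM in sham to 4.32 to 5.22 in UUO. Stat5a (0.63 to 0.83, then 1.45 to 2.47) and Cish (3.13 to 6.15, then 6.77 to 24.8) did not overlap either. Of the 4 mannose 6-phosphate pathway genes beside Igf2r, M6pr rose in PT UUO (0.69 ± 0.19, adjusted p = 0.0142) and Gnptg fell in stromal UUO (-1.25 ± 0.256, adjusted p = 0.00191).

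Genes whose mean levels ran most alike over the 12 groups were ranked among 14332 by Pearson's r on log2(FPKM + 1), as a description over groups that mix differences between populations with those between surgeries. For Igfbp6 they were Ddr2 (r = 0.994), Mrc2 (0.992) and Aff3 (0.991), and for Igfbp3 Dchs1 (0.99), Ecscr (0.99) and Fbxl7 (0.986). For Igfbp5 they were Spry4 (0.985), Rnf144a (0.979) and Epas1 (0.978), and for Igfbp7 Pkd2 (0.978), Parva (0.978) and Htra1 (0.974). Igfbp2 ran nearest to Cdh6 (0.974), Gm17396 (0.941) and Lrrn1 (0.933), and Igf1 to Dpy19l1 (0.973), Man1c1 (0.972) and Nfatc3 (0.972). Igf2r ran nearest to Csrp2 (0.964), Snap47 (0.958) and Dcun1d4 (0.958), Igfbp4 to Atp2a2 (0.954), Palld (0.938) and Unc5c (0.938), and Igf1r to Sgsm2 (0.950), Gm17344 (0.939) and Cldn1 (0.937). The nearest genes of Igf1r and Igfbp4 were thus less alike than those of Igfbp6.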

How the data were processed

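The deposited values were gene-level FPKM, which the authors made from the sequenced libraries. The submitters' processing notes name FastQC, Bowtie2, RSEM, DESeq2 and the mouse build mm10, without a role or order, and libraries were amplified by the Ovation System V2 kit. FPKM carry no read totals, so depth as counts is unknown; the number of libraries and their relative depth limit precision, and 9339 single-exon genes gave that relative depth. Of 46 columns, 44 were used. The other 2 bore the same name, so neither could be tied to its sample, and 1 labelled sample had no column of its name. These were not analysed here. PT UUO replicate 2 had a title naming both sham and UUO and was grouped by its treatment label.

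Values were compared as log2(FPKM + 1) with limma 3.58.1 (lmFit and eBayes with an intensity trend; R 4.3.3), 1 fit for the 3 surgery groups of each population, over genes averaging 1 FPKM or more in that population, with Benjamini-Hochberg adjustment over all genes tested and a threshold of 0.05. Sham levels and the differences of changes among populations were compared with limma F tests, the pairs of sham groups with limma. FPKM are not whole counts, so no count model was fitted. On simulated data, a log2 change of 2 in UUO against sham was found in 82% (PT), 85% (macrophage), 78% (endothelial) and 84% (stromal) of altered genes, and a change of 1 in 32%, 29%, 22% and 23%. False calls numbered 7, 7, 6 and 11 in the same order. The noise was drawn as normal with each gene's own spread. Only genes with a mean log2(FPKM + 1) above 2 were altered, so these rates do not cover lower members such as endothelial Igfbp2 or macrophage Igfbp6. Python 3.11.15 read the tables.

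The members and lists were chosen with earlier results of these data known. All 9 members were named in every group, listed pathway genes where they passed the threshold with groups that did not overlap or lay below 1 FPKM, and the 3 genes most alike for each member; markers were given for their levels. The design text describes separate mice per group, and libraries of several populations may come from the same mouse. Alternatives were another pseudocount (0.1), no filter, other scalings, a replicate block, a fit on all populations and leaving out each replicate. Replicate numbers recur across groups. Same-numbered libraries deviated together with a correlation over 0.1 in 2 of 57 pairs across populations and 1 of 35 across surgeries. Pairs with different numbers did so in 0 of 184 and 0 of 126. These counts do not settle which libraries share a mouse. The main fits used no pairing, and the tests between populations treated the libraries as independent. A marker gene and results that need it are not reported here.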

Additional observations from a re-analysis of the deposited data

Results flagged for a closer look

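In 6 of 72 groups of 4 libraries 1 library stood apart from the other 3, where a rate of 1 in 20 would give about 3.6. That rate does not hold for groups with values tied at 0, so 6 and 3.6 are not a like comparison. Igfbp5 was at 618.0 FPKM in endothelial sham replicate 4 and 1115 to 1217 in the others. Igfbp4 was at 118.18 in stromal sham replicate 4 (170 to 175 in the others) and at 164.34 in stromal UUO replicate 3 (299 to 306 in the others). Igf2r was at 3.42 in macrophage UUO replicate 1 and 0.53 to 0.73 in the others. In macrophage sham replicate 1, Igfbp6 was at 0.78 (0.15 to 0.21 in the others) and Igfbp2 at 0.09 where the others were listed at 0. With the others tied at 0, any Igfbp2 value above 0 would have been flagged.

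The change in UUO against sham differed among the 4 populations by limma's interaction F test for Igf2r (adjusted p = 9.14e-06), Igfbp4 (4.38e-06), Igfbp5 (3.01e-05), Igf1 (0.00131) and Igfbp7 (0.00162). Igf2r and Igfbp4 were called higher in stroma and lower in PT. Igfbp5 was lower in PT, endothelium and stroma, with -0.92, -0.89 and -2.64 on the log2 scale. The change in rUUO against UUO differed for Igfbp2 (adjusted p = 1.9e-06), Igf1 (0.00516) and Igfbp4 (0.00663).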

How the results depend on the processing

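No called change of a member altered its sign in any alternative. Estimates that were not called crossed 0 in some, such as Igfbp3 in PT UUO against sham (0.27, and -0.30 at the lowest). Over the members, 817 alternative values kept their side of the threshold, 37 lost a call and 22 gained one, and of refits without 1 library 1969 kept it, 55 lost and 19 gained. Counts of called genes moved by over 1.5 times as follows, and the cause was not tested. With a pseudocount of 0.1, PT rUUO against UUO gave 265 and endothelial rUUO against UUO 4. Without the filter, which tests more genes, PT gave 203 (rUUO against UUO) and 484 (rUUO against sham), macrophages 364 (UUO against sham), 1 (rUUO against UUO) and 303 (rUUO against sham), endothelium 127, 0 and 116 in the same order, and stroma 200 in rUUO against UUO. Rescaling to the same sum gave 2 in macrophage rUUO against UUO, as did rescaling without mitochondrial genes (2) and quantile normalization (2). Rescaling without mitochondrial genes also gave 496 for the rUUO change between populations. Quantile normalization gave 2479 (PT UUO against sham), 3 (endothelial rUUO against UUO), 361 (stromal rUUO against UUO) and 415 (rUUO change between populations). The fit on all populations gave 1338, 86 and 965 in macrophages (UUO against sham, rUUO against UUO, rUUO against sham), 492, 86 and 489 in endothelium, and 1231 in stromal rUUO against UUO.

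The fit with a replicate block gave 160 (PT rUUO against UUO), 346 and 115 (macrophage UUO and rUUO against sham), 101, 0 and 68 (endothelial UUO against sham, rUUO against UUO, rUUO against sham), 116 and 1574 (stromal rUUO against UUO and against sham) and 421 (rUUO change between populations). Under this block the calls lost were PT Igf2r and endothelial Igfbp5 in UUO against sham, Igfbp2 and Igfbp3 in endothelial rUUO against UUO, Igf1, Igfbp2 and Igfbp7 in endothelial rUUO against sham, Igf1, Igf1r, Igf2r and Igfbp4 in stromal rUUO against UUO, and stromal Igf1 in rUUO against sham. Within a population this block was the replicate number shared across surgeries, although the design text describes separate mice per group. In the tests between populations it was the surgery and number together. Igfbp3 gained a call in both tests of the change between populations. No other call of a member was altered by a block.

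Leaving out 1 library gave 121 to 469 calls in PT rUUO against UUO and 566 to 810 in PT rUUO against sham. In macrophages it gave 272 to 736 (UUO against sham), 0 to 15 (rUUO against UUO) and 207 to 653 (rUUO against sham), in endothelium 146 to 231, 3 to 10 and 119 to 336, and in stroma 289 to 768 in rUUO against UUO. The share of calls that were higher moved by over 10 percentage points with the scaling. From 64.5% in endothelial UUO against sham it went to 47.5% without mitochondrial genes, and in stroma from 50.8% to 38.6% in UUO against sham and from 67.6% to 49.5% in rUUO against sham. With quantile normalization it went from 70.8% to 54.0% in stromal rUUO against UUO, from 75.0% to 33.3% and from 79.3% to 60.7% in endothelial rUUO against UUO and sham, and from 17.6% to 59.3% and from 87.3% to 69.6% in PT rUUO against UUO and sham. FPKM without read totals limit what can be said of genes near 0, such as endothelial and PT Igfbp2 and macrophage Igfbp6.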
